A study of Homo sapiens with 43 samples.

Results

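The comparison set 2 latency-competent derivatives of the breast cancer cell line HCC1954, LCC1 and LCC2, against the parental line, all grown for 48 h in mitogen-rich medium (MRM). It held 7 of the 43 samples of the series: 3 parental RNA-seq libraries, 2 of LCC1 and 2 of LCC2. Of 25369 genes in the deposited table, 15432 had a mean normalised count of at least 10 over the 7 libraries and were tested, and 9937 did not. HCC1954 is an established line from a breast carcinoma with amplified ERBB2 and no clinical estrogen receptor expression. Per the labels, the LCC lines came from a mouse organ without bioluminescence signal, with the organ not named, and no further genetic change or drug is named for these libraries. Elsewhere the series holds HCC1954 in mitogen-low medium (MLM), the lung line H2087 with its own derivatives in both media, and 12 chromatin samples. Nothing in the labels says that the libraries of a line were separate cultures, so the spread between them was perhaps only technical. Fits that pooled LCC1 and LCC2 set the p-values against that spread together with the difference between these 2 isolates. A gene at which LCC1 and LCC2 differed could thus stay uncalled although the libraries of each line were close. Fits with LCC1 and LCC2 as separate groups measured library-to-library spread only.

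Latency-competent cancer cells are disseminated tumour cells that survive in distant organs for long periods without growing into a visible metastasis. Cells that leave an epithelial tumour can lose junctional and keratin genes and gain matrix, cadherin and transcription factor genes known from mesenchyme, a shift called the epithelial-to-mesenchymal transition. WNT antagonists such as DKK1, SOX factors, and ligands that natural killer cells read are genes often studied in such cells.

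The 7 libraries held 28799407 to 44705518 reads assigned to genes. Epithelial markers were present in every library, with their summed normalised count at 561900 to 599000 in the parental libraries and 296800 to 357900 in the LCC libraries, and ERBB2 was at 204502, 206219 and 183503 in parental, 194381 and 119992 in LCC1 and 145447 and 136399.6 in LCC2 libraries, so each line carried epithelial markers and a high ERBB2 count. Parental libraries differed little from each other (chi-square per degree of freedom 1.9 to 6.23 for each pair), as did the LCC2 libraries (2.1). But the LCC1 libraries differed by 115, as much as LCC1 library 1 differed from LCC2 library 1 (113). That was the closest pair between the derivatives, the others differing by 128 to 229. In MLM the LCC1 libraries differed by 3.64. The LCC1 libraries parted at interferon, MHC class II and inflammatory genes, described below, and list counts without the second one are given where they move by over 1.5 times and by more than 1 gene. As a description over 12775 genes of shared libraries, the deviations of the second LCC1 library correlated more with those of the first LCC1 library in MLM (0.645) than with those of the first LCC2 library there (0.169). For the first LCC1 library these correlations were 0.767 and 0.234. Of markers of other cell types, the summed fibroblast list was at 971.4 to 1046 in parental and 2391 to 3251 in LCC libraries, with 4 of 11 members tested and THY1 at 0 in all libraries. Blood cell markers summed to 1393 to 1445 and 688.2 to 1066 in the 2 groups, with CD3D at 0. Kidney tubule markers, 5 of 10 tested, summed to 619.6 to 634.7 and 786.9 to 1249, with PAX2 (log2 difference 2.93 ± 0.59, SE) and LHX1 (0.79 ± 0.19) higher and AQP1 lower (-0.96 ± 0.21), and their part in the results was not tested. Endothelial markers summed to 934.3 to 985 and 885.8 to 1452, and adipocyte and neural markers to 3044 to 3105 and 1991 to 2753. In bulk RNA, fewer cells of a type and less RNA per cell cannot be told apart.

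The derivatives differed from the parental line at 38.4% of the tested genes. In limma fits of log2(normalised count + 1), with Benjamini-Hochberg adjustment over all tested genes and 0.05 as threshold, 2959 genes (19.2%) were called higher and 2973 (19.3%) lower in LCC, and at every one of them both derivative means lay beyond all 3 parental libraries on the side of the call. This fit counts the difference between LCC1 and LCC2 as spread, so such agreement was largely built into the calls. With LCC1 and LCC2 as separate groups, 4434 genes were higher and 4453 lower. Of these, 4051 and 4041 had both derivative means beyond the parental libraries. Over all tested genes, both derivative means lay beyond the parental libraries on one side at 64.3%, and every LCC library did so at 51.6% (25.6% above and 26% below), while the median difference was -0.00415 on the log2 scale. With each derivative averaged to 1 value, 2862 genes (18.5%) were higher and 3051 (19.8%) lower. Leaving out parental library 1, 2 or 3 took the calls to 1895, 1874 or 1896 higher and 1774, 1807 or 1833 lower, and leaving out the second LCC1 library raised them to 3712 and 3719. Rescaling the libraries to equal totals moved the median difference to 0.123 and the share of calls that were higher from 49.88% to 63.99%, so the balance of higher and lower calls depends on the scaling.

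Among the genes with the largest changes, several had few reads in one group. FOXI1, a forkhead factor that drives ionocyte and intercalated cell programmes, was at 3.2, 1.91 and 5.52 in parental libraries 1 to 3, at 812 and 300.0 in the LCC1 libraries and at 3032 and 2967 in the LCC2 libraries. Every LCC library was above every parental library, as the choice of the largest changes required, and both LCC2 libraries were above both of LCC1. The log2 difference was 8.14 ± 0.82 (SE, as in each difference given, n = 4 LCC and 3 parental libraries), with adjusted p = 4.43e-04. Its partner in that programme, the proton pump subunit gene ATP6V0A4, was at 95.1, 85.2 and 63.5 in parental, 293 and 331 in LCC1 and 1143 and 1126 in LCC2 (2.88 ± 0.54, adjusted p = 0.00551), and of the 9 tested genes of the ionocyte and proton pump list these 2 rose, 1 fell (ATP6V0B, -0.67 ± 0.12) and 6 were not called, while without the second LCC1 library 5 were higher. The unannotated transcript LOC101926940 had no read in any parental library and was at 437 and 521 in LCC1 and 199.8 and 189 in LCC2, at least 409.8-fold higher against 3 reads over the parental group.

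SPARC, a secreted collagen-binding matrix protein, was at 5.59, 14.4 and 11.7 in parental, 878 and 435 in LCC1 and 2389 and 2430.2 in LCC2 libraries (6.81 ± 0.65, adjusted p = 3.40e-04). The receptor tyrosine kinase gene ROS1 was at 20, 14.4 and 23.5 in parental, 1635 and 2743 in LCC1 and 884 and 832 in LCC2 (6.08 ± 0.43, adjusted p = 1.07e-04). TWIST1, a basic helix-loop-helix factor that directs mesenchymal fate, was at 2.4, 0.957 and 4.14 in parental, 186 and 246 in LCC1 and 137 and 129 in LCC2 (5.71 ± 0.38, adjusted p = 9.56e-05). At these 3 genes the parental and LCC libraries did not overlap, which was a condition of being named among the largest changes. SPON2, a secreted matrix protein, had 2 reads in the parental group and was at 23.6 and 12.5 in LCC1 and 359.5 and 337 in LCC2, a ratio of LCC to parental of 364.4 (95% counting interval 100.6 to 3013), with LCC2 above LCC1 by 4.26 ± 0.55 on the log2 scale (adjusted p = 0.00244). The remaining genes of the 10 largest increases were CPQ, a plasma peptidase (5.91 ± 0.21), ZDHHC2, a palmitoyltransferase (5.90 ± 0.27), COL6A2, a collagen VI chain (5.88 ± 0.33), and SLC16A14, a member of the monocarboxylate transporter family (5.80 ± 0.21).

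LMAN1, the cargo receptor that carries clotting factors V and VIII from the endoplasmic reticulum to the Golgi, was at 3522, 3589.7 and 3785 in the parental libraries, 6.16 and 0.781 in LCC1 and 2.62 and 2.03 in LCC2 (-10.04 ± 0.42, adjusted p = 1.76e-05). It was expressed in every parental library and near absent from every LCC library. LMAN1's partner MCFD2 did not share the loss (-0.07 ± 0.15, not called). Among 11 tested cargo receptor genes 2 rose and 5 fell, those other than LMAN1 by less than 1 on the log2 scale, such as TMED9 (-0.69 ± 0.12) and LMAN2L (0.58 ± 0.10).

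MXRA5, a matrix remodelling protein, was at 4005, 3686 and 4128 in parental, 61.6 and 12.5 in LCC1 and 43.6 and 29.1 in LCC2 (-6.91 ± 0.47, adjusted p = 1.00e-04). The chemokine gene CCL2, which draws monocytes, was at 342, 329 and 320.1 in parental, 3.08 and 2.34 in LCC1 and 7.85 and 6.76 in LCC2 (-5.90 ± 0.37, adjusted p = 7.85e-05). PLAT, the tissue plasminogen activator, was at 14228, 15306 and 13947 in parental, 561 and 309 in LCC1 and 137 and 148 in LCC2 (-5.89 ± 0.47, adjusted p = 1.66e-04). None of the 3 overlapped between groups, again a condition of their choice. SPP1, the secreted phosphoprotein osteopontin, was at 766, 850.0 and 745 in parental, but its LCC1 libraries parted, at 173 and 5.47, beside 7.85 and 6.08 in LCC2 (-5.59 ± 1.11, adjusted p = 0.00684). DHRS9, a retinol dehydrogenase, fell from 4483, 4596 and 4765 in parental libraries to 624 and 92.2 in LCC1 and 19.2 and 14.9 in LCC2 (-6.13 ± 1.19), and LXN, a carboxypeptidase inhibitor, fell from 268, 271 and 322 in parental to 2.05 and 0 in LCC1 and 20.9 and 14.9 in LCC2 (-5.65 ± 1.03). KRT4 and STEAP1 were also among the 10 largest decreases (-6.15 ± 0.46 and -5.82 ± 0.25).

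**Figure D1:**
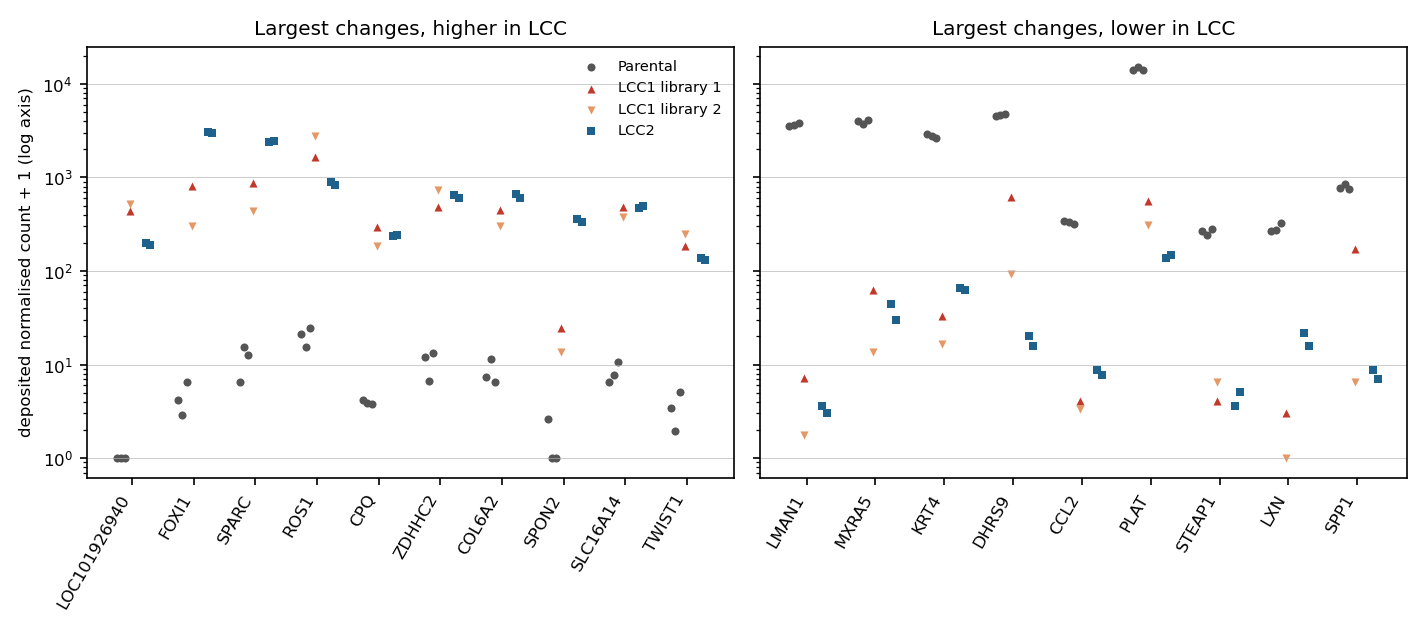
Deposited normalised count plus 1 (log axis) of the genes with the largest increases and decreases in LCC that the text names, with 1 point for each of 3 parental, 2 LCC1 and 2 LCC2 libraries. At each gene shown the parental points lie on one side of every LCC point, as the choice of genes required. At DHRS9, SPON2 and SPP1 the LCC points spread widely among themselves.

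Some of these genes kept a small number of reads in the group where they were low, and the source of those reads was not tested. Of genes at or under 2 in every parental MLM library and at 100 or more on average in LCC in both media, 12 in number, the parental MRM libraries held a median of 1.299%, 1.649% and 1.628% of the LCC mean, against a median of 0% in each parental MLM library. The MLM level chose these genes, so the pair of figures is a description and no test. SATB1, a chromatin organiser, was at 12, 9.57 and 7.59 in the parental MRM libraries, 212 and 133 in LCC1 and 736 and 753 in LCC2 (5.07 ± 0.64, adjusted p = 0.00104), with every LCC library above every parental one. LOC101926940 had no parental read in either medium. The 4 genes chosen the other way round, with FZD10, LMAN1 and UGT1A10 among them, were at medians of 0% to 0.2158% of the parental mean in the LCC MRM libraries.

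Epithelial genes fell together, most of them by less than 1 on the log2 scale. Of 24 epithelial markers, all tested, 19 fell (79.2%, against 19.3% of all tested genes), 1 rose and 4 were not called, with a median of -0.76 against -0.00415 over all tested genes. CDH1, the cadherin of epithelial junctions, was at 25821, 24516 and 25075 in parental, 13906 and 10889.6 in LCC1 and 14953 and 14736 in LCC2 (-0.89 ± 0.13, adjusted p = 0.00161). The RAB25 gene, for a small GTPase of epithelial membrane recycling, was at 7339, 7224 and 6723 in parental, 2104 and 1635 in LCC1 and 2647 and 2580.3 in LCC2 (-1.69 ± 0.17, adjusted p = 4.50e-04). In both genes every LCC library was below every parental library. The tight junction gene CLDN4 (-0.80 ± 0.09), the splicing regulator ESRP2 (-0.84 ± 0.09), the desmosome gene DSP (-0.69 ± 0.09) and the mucin MUC1 (-2.25 ± 0.46) fell as well, while KRT19 was the member that rose (0.83 ± 0.25). EPCAM fell by a small amount (-0.33 ± 0.10, adjusted p = 0.0317), and its call was lost when any parental library or the first LCC2 library was left out, with an adjusted p of up to 0.109. Under equal library totals 12 of the 24 were called lower, and without the second LCC1 library 20 were.

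Promoters of 4 epithelial genes that fell are shown because each holds an E-box, the hexamer CACCTG searched on both strands, so that its reverse complement counts too, which repressors of epithelial genes such as SNAI1 and ZEB1 bind. They are the 4 with the smallest adjusted p among members with such a match and a RefSeq entry (GRCh38.p14, 250 bases before to 50 after the gene start), given 5′ to 3′ on the gene's strand with the E-boxes in capitals.
RAB25, chr1:156060910-156061209 (plus strand): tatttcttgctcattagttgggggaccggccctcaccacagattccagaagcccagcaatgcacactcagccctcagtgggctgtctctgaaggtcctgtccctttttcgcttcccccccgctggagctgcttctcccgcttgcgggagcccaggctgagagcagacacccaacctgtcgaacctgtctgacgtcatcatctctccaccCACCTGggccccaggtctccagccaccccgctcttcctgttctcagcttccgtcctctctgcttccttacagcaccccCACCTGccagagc
DSP, chr6:7541421-7541720 (plus strand): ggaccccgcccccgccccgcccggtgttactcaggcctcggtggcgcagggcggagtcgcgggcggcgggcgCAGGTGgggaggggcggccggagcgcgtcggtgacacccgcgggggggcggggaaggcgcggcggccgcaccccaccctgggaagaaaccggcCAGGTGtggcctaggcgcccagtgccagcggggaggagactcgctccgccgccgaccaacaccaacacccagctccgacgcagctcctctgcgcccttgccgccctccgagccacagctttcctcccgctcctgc
CDS1, chr4:84582877-84583176 (plus strand): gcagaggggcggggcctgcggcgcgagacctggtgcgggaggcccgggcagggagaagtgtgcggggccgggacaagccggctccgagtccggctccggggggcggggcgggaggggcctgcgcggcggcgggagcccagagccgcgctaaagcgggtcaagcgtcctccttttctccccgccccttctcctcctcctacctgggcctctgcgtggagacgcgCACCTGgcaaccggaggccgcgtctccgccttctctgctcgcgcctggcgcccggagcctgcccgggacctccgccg
MUC1, chr1:155192866-155193165 (minus strand): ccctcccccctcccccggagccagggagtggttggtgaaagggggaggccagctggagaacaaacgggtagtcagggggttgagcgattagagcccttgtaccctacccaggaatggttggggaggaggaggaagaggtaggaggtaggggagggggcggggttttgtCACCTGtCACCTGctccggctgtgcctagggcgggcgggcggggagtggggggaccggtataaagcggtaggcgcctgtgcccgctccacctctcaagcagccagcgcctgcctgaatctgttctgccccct
The hexamer is common, in 20.6% of 27305 RefSeq promoters of that length and in 19.35% of the 10678 that belong to tested genes. Only 11 of the 19 members that fell had an entry (57.89%), too few to read a share for the list, and a match shows letters, not a bound site. CDS1, a CDP-diacylglycerol synthase, was at 3163, 3238 and 3472 in parental, 2554 and 1785 in LCC1 and 2092 and 2027 in LCC2 (-0.65 ± 0.13).

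Mesenchymal genes rose in both derivatives, many of them more in LCC1, with exceptions among the best known. Of 20 listed genes 16 were tested, and 9 rose (56.2%, against 19.2% of all tested genes), 1 fell and 6 were not called, with a median of 1.76. The median was 2.23 for LCC1 and 1.57 for LCC2. LCC2 was lower than LCC1 at 8 of the 16 and higher at 1, beside 18.6% and 16.4% of all tested genes. Among those not called, CYR61 had a mean of 2277 in parental, 9590 in LCC1 and 1457 in LCC2. TGFBI was at 8574, 16891 and 7363 in the same order, and TNC at 2650, 21755 and 3642. FN1, fibronectin, was at 7994, 8089.7 and 7892 in parental, 53936 and 86517 in LCC1 and 30150.3 and 28344 in LCC2 (2.48 ± 0.38, adjusted p = 0.00217), with LCC1 above LCC2. AXL, a receptor kinase of mesenchymal tumour cells, was at 63.9, 55.5 and 63.5 in parental, 2958 and 7074 in LCC1 and 1025 and 1006 in LCC2 (5.12 ± 0.66, adjusted p = 0.00115). MMP2, a gelatinase, was at 339, 341 and 309.8 in parental, 5647 and 1727 in LCC1 and 2674 and 2619.5 in LCC2 (3.12 ± 0.35, adjusted p = 6.93e-04). These 3 genes had no overlap between groups. N-cadherin, CDH2, was low throughout but higher in LCC (42.1 and 90.6 in LCC1 and 14.8 and 10.8 in LCC2 against 0.799, 0 and 2.07 in parental, 4.05 ± 0.76), and the repressor SNAI1 rose by 1.82, whereas CDH11, the osteoblast cadherin, fell (-3.63 ± 0.24). VIM, the intermediate filament taken as the standard mesenchymal marker, was not called (adjusted p = 0.603): it was at 256, 227 and 250.4 in parental and 181 and 178 in LCC2, and in LCC1 at 263 and 2549.5, so the second LCC1 library alone was high, the first was just above the parental range and LCC2 was below it. ZEB1, ZEB2, PRRX1 and FOXC2 did not reach the level for testing. Of the fibroblast list, whose part in these results was not tested, COL1A1 (0.67 ± 0.16), S100A4 (1.10 ± 0.20) and ACTA2 (3.96 ± 0.30) rose and FAP was not called.

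Most luminal breast identity genes fell. Of 15 tested, 11 fell (73.3%), 1 rose and 3 were not called, with a median of -1.75. CEACAM5, an adhesion glycoprotein of glandular epithelia, was at 2982, 3350.4 and 2895 in parental, 191 and 67.2 in LCC1 and 138 and 135 in LCC2 (-4.61 ± 0.32, adjusted p = 1.01e-04). SPDEF, an ETS factor of luminal and goblet cells, was at 2079, 2067 and 1783 in parental, 675 and 507 in LCC1 and 734 and 709.8 in LCC2 (-1.60 ± 0.15, adjusted p = 2.98e-04). Both were lower in every LCC library. TFF1, a secreted trefoil peptide and textbook estrogen receptor target, had 305 parental reads and 3 in LCC, a ratio of parental to LCC of 132.4 (95% counting interval 44.88 to 645.6). The estrogen receptor gene ESR1 itself was the member that rose, from 109, 110.1 and 118 to 458 and 337 in LCC1 and 342 and 347 in LCC2 (1.70 ± 0.15, adjusted p = 2.27e-04). The pioneer factors FOXA1 (-1.19 ± 0.17) and GATA3 (-0.72 ± 0.14) and the secretory regulator XBP1 (-1.79 ± 0.18) fell, and TFAP2C was not called (0.10 ± 0.12).

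Keratins of stratified epithelia moved in both directions. Of 16 tested members 5 rose, 6 fell and 5 were not called (31.2% and 37.5% beside 19.2% and 19.3% of all tested genes). KRT4, a keratin of mucosal epithelia, was at 2877, 2785 and 2611 in parental, 31.8 and 15.6 in LCC1 and 64.6 and 62.2 in LCC2, and KRT13, its pairing partner, was at 4784, 5176 and 4585 in parental, 396 and 924 in LCC1 and 1009.7 and 934 in LCC2 (-2.66 ± 0.32). The basal keratin pair divided: KRT5 was higher in every LCC library (6662, 6244 and 6271 in parental, 30985 and 25844 in LCC1 and 10623 and 11073 in LCC2, 1.45 ± 0.40) and KRT14 was lower (895, 847 and 815 in parental, 135 and 263 in LCC1 and 360.4 and 347 in LCC2, -1.72 ± 0.33). KRT75 rose (1.88 ± 0.19), and KRT6A fell far more in LCC2 (89.9 and 81.8) than in LCC1 (874 and 827) from 3052, 2981 and 2731. Keratins of high sequence similarity, such as KRT6A and KRT6B or KRT81 and KRT86, can share reads, so their separate values are uncertain.

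**Figure D2:**
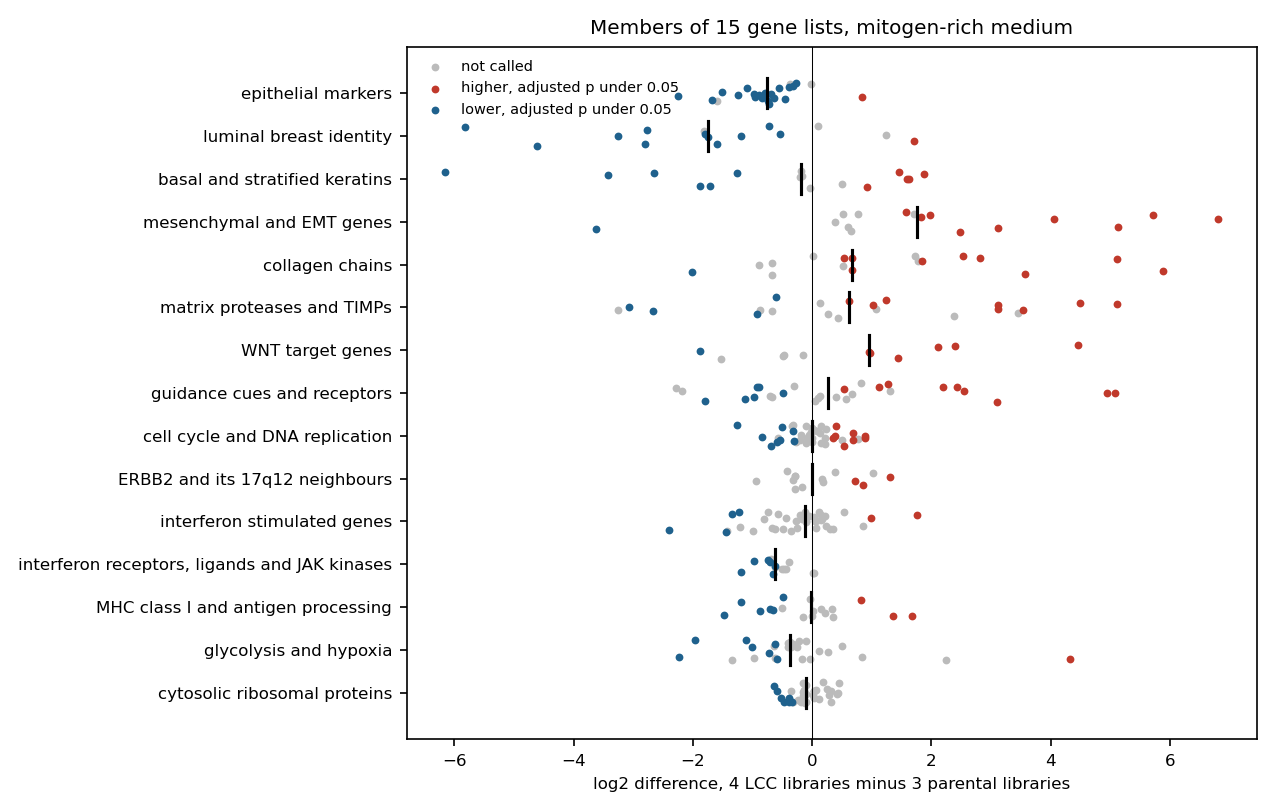
Log2 difference between the 4 LCC and 3 parental libraries for each tested member of 15 gene lists, coloured by call, with the list's median as a black bar. Epithelial and luminal members lie mostly to the left of 0 and mesenchymal members to the right. The medians of the cell cycle, ERBB2 neighbour and interferon stimulated lists lie near 0, with interferon stimulated members spread widely on both sides.

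Matrix genes rose in both derivatives more often than they fell. Of 17 tested collagen chains 9 rose (52.9%), 1 fell and 7 were not called, with a median of 0.67. The median was 0.83 for LCC1 and 0.55 for LCC2. LCC2 was lower than LCC1 at 9 of the 17 and higher at 2, beside 18.6% and 16.4% of all tested genes. COL6A1, which forms the beaded filaments of collagen VI with COL6A2, was at 67.9, 54.6 and 56.6 in parental, 1679.8 and 1457 in LCC1 and 2839.7 and 2729 in LCC2 (5.11 ± 0.26, adjusted p = 4.00e-05). Its partner COL6A2 was at 6.39, 10.5 and 5.52 in parental, 448 and 303 in LCC1 and 668 and 606 in LCC2 (5.88 ± 0.33, adjusted p = 5.69e-05). Both were low in every parental library and high in every LCC library, and the third chain gene, COL6A3, did not reach the level for testing. The basement membrane chains COL4A1 (2.53 ± 0.54) and COL4A2 (1.84 ± 0.60) rose and the cartilage chain COL9A2 fell (-2.02 ± 0.63). COL1A1 rose by 0.67 ± 0.16, but lost its call without parental library 3 (adjusted p = 0.0625). The summed fibroblast markers given above moved with these genes, and their part was not tested.

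Matrix proteases were mixed, with 8 of 21 tested members up (38.1%), 4 down and 9 not called. ADAM12, a membrane metalloprotease of placenta and tumours, was at 14.4, 12.4 and 14.5 in parental, 943 and 338 in LCC1 and 466 and 456 in LCC2 (5.12 ± 0.33, adjusted p = 8.55e-05). MMP9, a gelatinase, was at 10.4, 10.5 and 7.59 in parental, 65.8 and 172 in LCC1 and 131 and 141 in LCC2 (3.54 ± 0.34, adjusted p = 3.61e-04). Every LCC library exceeded every parental library at both. Matrilysin, MMP7, fell (-2.68 ± 0.60), as did the sheddases ADAM10 (-0.93 ± 0.14) and ADAM17 (-0.61 ± 0.16). The collagenase MMP13 was at 662, 741 and 694 in parental and 38.4 and 25 in LCC2, but its LCC1 libraries were at 613 and 74.2, and its call (adjusted p = 0.0425) was lost without the second of them (0.067). The inhibitors TIMP1 (1.02 ± 0.14) and TIMP2 (0.61 ± 0.13) rose.

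In the plasminogen system PLAT fell, as given above. The urokinase gene PLAU was not called (-0.37 ± 0.24). Of the clade B serpins of squamous epithelium, SERPINB2 (-2.24 ± 0.75), SERPINB3 (-1.39 ± 0.41) and SERPINB4 (-1.53 ± 0.41) fell. SERPINB3 and SERPINB4 are near-identical neighbours that can share reads, so their separate values are uncertain. In all, 5 of 19 members rose and 6 fell.

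Of 23 tested integrin, laminin and adhesion genes, 5 rose, 3 fell and 15 were not called, close to the background. MCAM, an adhesion receptor of melanoma and endothelium, was at 20.8, 14.4 and 27.6 in parental, 450.0 and 842 in LCC1 and 302 and 306 in LCC2 (4.35 ± 0.40, adjusted p = 2.89e-04). ITGB1, the shared beta chain of most matrix integrins, was at 30020.0, 29267 and 31828 in parental, 15346 and 19277 in LCC1 and 10088 and 10300.3 in LCC2 (-1.20 ± 0.23, adjusted p = 0.00623). MCAM was higher and ITGB1 lower in every LCC library. ITGA1 (1.75 ± 0.19), ITGB8 (1.67 ± 0.27) and L1CAM (1.89 ± 0.52) rose, and LAMB1 fell (-0.55 ± 0.13).

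WNT ligands act through cell surface receptors and are held back by secreted antagonists. DKK1, a secreted antagonist that binds the WNT co-receptors, was at 1372, 1078 and 1221 in parental, 1401 and 4476 in LCC1 and 6212 and 6538 in LCC2 (1.71 ± 0.51, adjusted p = 0.0328). The first LCC1 library lay barely above the parental range and the other 3 LCC libraries well above it. The call was lost in 6 of 7 fits that left out a library, with an adjusted p of up to 0.106. Of the other tested inhibitors RNF43 rose (0.47 ± 0.10), KREMEN2 fell (-1.09 ± 0.15), and 10 of the 15 listed, the SFRP genes among them, were not tested.

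Of 24 tested WNT ligands and receptors 7 rose (29.2%, against 19.2% of all tested genes) and 4 fell (16.7%, against 19.3%). WNT5A, a ligand of non-canonical signalling, was at 2463, 2465 and 2558 in parental, 296 and 155 in LCC1 and 179.8 and 175 in LCC2 (-3.67 ± 0.22, adjusted p = 6.69e-05). The receptor gene FZD8 was at 5.59, 14.4 and 6.21 in parental, 105 and 102 in LCC1 and 101 and 109.5 in LCC2 (3.55 ± 0.31, adjusted p = 2.39e-04). WNT5A fell and FZD8 rose by like amounts in all 4 LCC libraries. Of 11 tested target genes of the pathway 6 rose (54.5%), 1 fell and 4 were not called, with a median of 0.95. LEF1, a nuclear partner of beta-catenin, was at 0, 2.87 and 0.69 in parental, 29.8 and 34.4 in LCC1 and 53.2 and 46.6 in LCC2 (4.45 ± 0.48), and TCF7 at 87.1, 98.6 and 93.8 in parental, 284 and 270.3 in LCC1 and 860.5 and 909.9 in LCC2 (2.40 ± 0.48). AXIN2, the target most often read as pathway output, was not called (-0.48 ± 0.63), and BAMBI fell (-1.88 ± 0.21).

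The SOX factors parted. SOX2, a factor of stem and progenitor cells, was at 427, 417 and 382 in parental, 40.1 and 14.8 in LCC1 and 62 and 65.6 in LCC2 (-3.33 ± 0.48, adjusted p = 0.00179). SOX9, another progenitor factor, was at 3525, 3424 and 3332 in parental, 4972 and 5856 in LCC1 and 6090.4 and 6025 in LCC2 (0.74 ± 0.09, adjusted p = 0.00107). SOX2 was lower and SOX9 higher in every LCC library than in any parental one. SOX4 (-1.86 ± 0.29) and SOX13 (-1.01 ± 0.20) fell, and SOX18 (1.43 ± 0.30) and SOX12 (0.95 ± 0.19) rose. The retinaldehyde dehydrogenase ALDH1A1, used as a stem cell marker, rose (5.01 ± 0.40), and CD44 was not called (0.34 ± 0.18). Over the 19 tested members 7 rose (36.8%) and 4 fell (21.1%).

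In the TGF-beta and BMP list, 9 of 29 members rose (31%), 4 fell (13.8%) and 16 were not called. The ligands divided: TGFB1 was at 1737, 1671 and 1453 in parental, 380.1 and 293 in LCC1 and 696 and 674 in LCC2 (-1.75 ± 0.31, adjusted p = 0.00433), and TGFB2 at 1682, 1686 and 1800.0 in parental, 6297 and 11001 in LCC1 and 4364 and 4691 in LCC2 (1.83 ± 0.30, adjusted p = 0.00309). Neither overlapped between groups. BMP6 (4.31 ± 0.37) and BMP7 (3.14 ± 0.29) rose while BMP4 (-1.64 ± 0.26) fell, and the receptor genes BMPR2 (-1.33 ± 0.15) and BMPR1B (-1.94 ± 0.27) fell while TGFBR2 rose (1.09 ± 0.11). The signal carriers SMAD2, SMAD3 and SMAD4 were not called.

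Notch genes moved both ways at near background shares (5 up, 5 down of 20). NOTCH3, a receptor, was at 5781, 5884 and 5277 in parental, 1403 and 436 in LCC1 and 1153 and 999.8 in LCC2 (-2.62 ± 0.37, adjusted p = 0.00158), all LCC libraries below the parental ones. The target gene HEY2 was near 0 in parental libraries (0, 0 and 0.69) and at 13.4 and 17.2 in LCC1 and 27.9 and 21 in LCC2. Of 28 guidance genes 9 rose (32.1%) and 6 fell (21.4%). The secreted cue NTN1 was at 22.4, 17.2 and 17.2 in parental, 466 and 459 in LCC1 and 968 and 938 in LCC2 (5.07 ± 0.32, adjusted p = 8.33e-05). Of the semaphorin co-receptors NRP1 fell (-1.80 ± 0.08) and NRP2 rose (2.55 ± 0.31).

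Of 21 receptor kinase and angiogenic factor genes 6 rose (28.6%) and 2 fell (9.52%). RET, the receptor of the GDNF family, was at 3.2, 1.91 and 4.14 in parental, 241 and 101 in LCC1 and 264 and 251 in LCC2 (5.66 ± 0.39, adjusted p = 1.01e-04), with no overlap. FGFR1 (2.25 ± 0.32) rose and FGFR2 fell (-0.57 ± 0.15). The ERBB2 level given above was not called different (-0.43 ± 0.18, adjusted p = 0.0942), but it was called lower with each derivative averaged to 1 value (adjusted p = 0.0367). Of the 14 genes in and beside its amplified segment 3 rose (21.4%) and 11 were not called, and with the derivative as the unit 2 were lower. EGFR was not called (-0.45 ± 0.33) and its derivatives differed, with LCC1 at 2678 and 2923 and LCC2 at 1308 and 1207 against 2539, 2525 and 2649 in parental. ERBB3, the partner of ERBB2, fell (-1.19 ± 0.20), as did the ligands BTC (-1.33 ± 0.20) and EPGN (-1.83 ± 0.46), the latter losing its call without any one parental library (adjusted p of up to 0.0641).

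Interferon stimulated genes differed between the LCC1 libraries, and few were called. Of 39 tested, 2 rose (5.13%), 4 fell (10.3%) and 33 were not called, fewer than the background in each direction. The median difference was 0.49 for LCC1 and -0.94 for LCC2, each against the same parental libraries. With LCC1 and LCC2 as separate groups, 24 of the 39 were called lower in LCC2 than in LCC1 and 0 higher. Of all tested genes 18.6% were lower and 16.4% higher in that contrast. IFI44L was at 774, 785 and 1087 in parental, 10611 and 1423 in LCC1 and 260.1 and 272 in LCC2, and OAS2, an antiviral oligoadenylate synthetase, was at 3803, 3699.8 and 4443 in parental, 15367 and 1661 in LCC1 and 411 and 439 in LCC2. The first LCC1 library lay above the parental range and LCC2 below it at both genes, and the second LCC1 library was above it at IFI44L and below it at OAS2. The transcription factor IRF1 was lower in all LCC libraries (5527, 5718 and 5571 in parental, 3679 and 2095 in LCC1 and 2078 and 2014 in LCC2, -1.23 ± 0.21, adjusted p = 0.00382). SAMD9L fell by 2.40 on the log2 scale, with an adjusted p of up to 0.0663 without a parental library. Without the second LCC1 library the counts of the list were again 2 and 4. IFITM1, an antiviral membrane protein, was at 3635, 3961 and 3587 in parental, 14894 and 1697 in LCC1 and 3012 and 2824 in LCC2, and the MHC class II chain HLA-DRA at 623, 637 and 591 in parental, 866 and 37.5 in LCC1 and 249.6 and 256 in LCC2. At both the first LCC1 library was above and the second below all others.

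Upstream of these targets, 6 of 14 tested interferon receptor, ligand and JAK genes fell (42.9%) and 8 were not called, with a median of -0.62, and the counts were the same without the second LCC1 library. JAK1 was at 4847, 4799.6 and 5046 in parental, 3373 and 3350.4 in LCC1 and 3044 and 3008 in LCC2 (-0.62 ± 0.08, adjusted p = 0.0011). The receptor chain IFNAR2 was at 1396, 1482 and 1367 in parental, 574 and 552 in LCC1 and 882 and 950.5 in LCC2 (-0.98 ± 0.21, adjusted p = 0.00973). Both were lower in each LCC library, and JAK2 (-0.73 ± 0.13), JAK3 (-1.19 ± 0.26), IFNGR2 (-0.71 ± 0.22) and IFNLR1 (-0.65 ± 0.11) fell too.

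Of 18 antigen presentation genes 3 rose (16.7%), 6 fell (33.3%) and 9 were not called, and without the second LCC1 library 6 rose and 7 fell. The classical heavy chain HLA-B was at 6217, 6383 and 5609.8 in parental, 17053 and 9224 in LCC1 and 19021 and 19140.4 in LCC2 (1.35 ± 0.26, adjusted p = 0.0055). HLA-F also rose (1.68 ± 0.29). B2M, the light chain, was not called (0.21 ± 0.30): LCC1 was at 39120.0 and 16675 and LCC2 at 36341 and 37594 against 26038, 25948 and 27888, so the second LCC1 library alone was below the parental range. The peptide trimming gene ERAP2 (-1.49 ± 0.17), the immunoproteasome subunit PSMB10 (-1.20 ± 0.32) and the loading factor CALR (-0.71 ± 0.11) fell. HLA genes are similar enough to share reads, so the split between them is uncertain.

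Of 13 tested ligands that natural killer cells read, 2 fell (15.4%) and 11 were not called. ULBP1 was at 161, 127 and 160.1 in parental, 217 and 213 in LCC1 and 123 and 128 in LCC2 (0.15 ± 0.25, not called), with LCC1 above the parental range and LCC2 at its lower edge. ULBP2 was likewise not called (0.11 ± 0.14). PVRL2, the nectin read by DNAM-1, was at 8223, 8554 and 7455 in parental, 4924 and 3259 in LCC1 and 3636 and 3536 in LCC2 (-1.09 ± 0.15, adjusted p = 0.00138), lower in every LCC library.

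Among NF-kB factors, cytokines and chemokines 2 of 24 rose and 3 fell, and 7 rose without the second LCC1 library. TNFAIP3, a feedback inhibitor, was at 259.6, 283 and 271 in parental, 1488 and 6479.7 in LCC1 and 578 and 564 in LCC2, above the parental range throughout but not called (2.29 ± 0.81, adjusted p = 0.0576). NFKBIZ, an inducible nuclear regulator, was at 5824, 5969 and 6056 in parental, 669 and 842 in LCC1 and 1516 and 1462 in LCC2 (-2.49 ± 0.29, adjusted p = 7.92e-04), lower in each LCC library. The death ligand TNFSF10 was at 4017, 4267 and 4354 in parental, 1039 and 89.9 in LCC1 and 831 and 839.6 in LCC2 (-3.05 ± 0.81, adjusted p = 0.0211, and up to 0.0717 without a parental library).

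**Figure D3:**
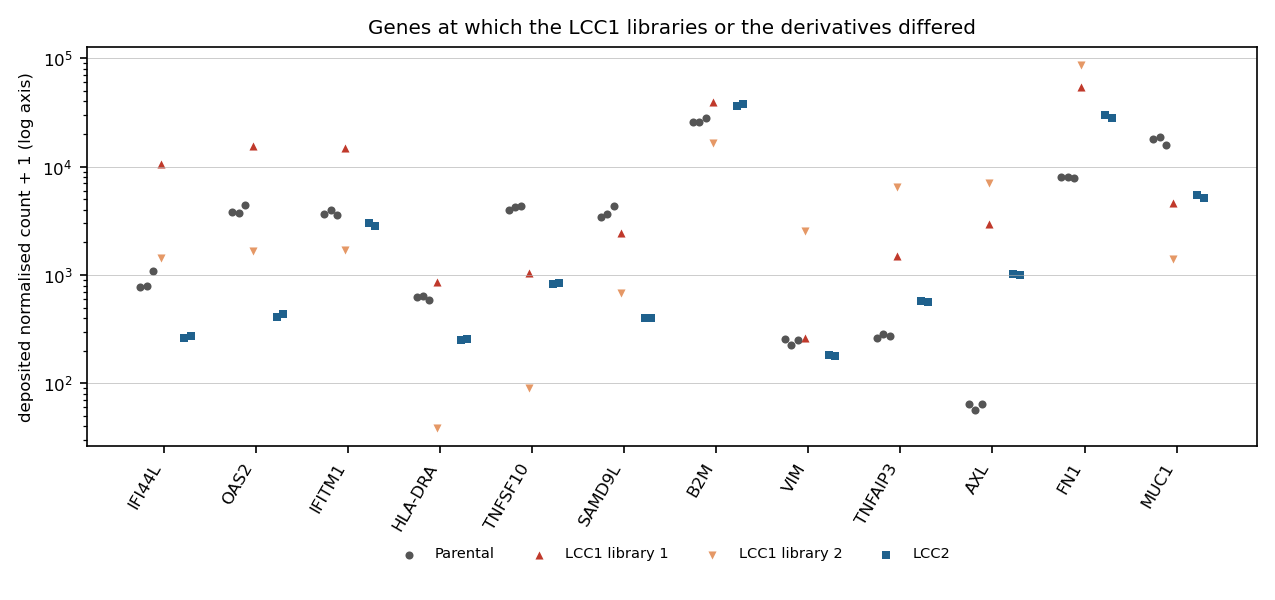
Deposited normalised count plus 1 (log axis) of 12 genes, with separate symbols for the first and the second LCC1 library, 3 parental and 2 LCC2 libraries. The LCC1 symbols lie far apart at IFI44L, OAS2, IFITM1, HLA-DRA and VIM, while the LCC2 points lie close together at every gene shown.

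Proliferation genes were near the background in mitogen-rich medium. Of 40 cell cycle and replication genes, 8 rose and 8 fell (20% each), with a median of -0.01, and under equal library totals 13 were higher and 5 lower. In the fit with separate groups, LCC2 was lower than LCC1 at 14 of the 40 and higher at 2. The shares over all tested genes were 18.6% and 16.4%. MKI67 was at 13109.9, 12389 and 13577 in parental, 9303 and 15246 in LCC1 and 13084 and 13039 in LCC2 (-0.06 ± 0.16, not called), the LCC1 libraries lying on either side of the parental range. The cyclin CCNA2 (0.69 ± 0.09) and the replication helicase subunit MCM3 (0.88 ± 0.08) rose, and the kinase CDK2 (-0.84 ± 0.11) and E2F2 (-1.25 ± 0.18) fell. Among CDK inhibitors and quiescence genes, 4 of 24 rose and 6 fell. CDKN1A, the p53 target p21, was at 1567, 1626 and 1484 in parental, 3631 and 3639.5 in LCC1 and 2830.1 and 2759 in LCC2 (1.03 ± 0.13, adjusted p = 9.73e-04), higher in each LCC library. CDKN1B was not called (-0.07 ± 0.17). NR2F1, a nuclear receptor studied in dormant cells, was at 231, 255 and 197 in parental, 62.7 and 127 in LCC1 and 7.85 and 8.79 in LCC2 (-2.97 ± 0.95, adjusted p = 0.0423), lower in LCC and lowest in LCC2.

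Of immediate early genes 4 of 17 rose and 4 fell. MYC was at 2423, 2279 and 2220.2 in parental, 5276 and 6879 in LCC1 and 3428 and 3376 in LCC2 (0.97 ± 0.25, adjusted p = 0.0196), and EGR3, low in all libraries, rose (3.09 ± 0.60) while ZFP36 (-1.32 ± 0.32) and JUNB (-0.77 ± 0.10) fell. Of 18 ERK feedback genes 4 rose and 1 fell. The phosphatase DUSP2 was at 3.2, 4.79 and 2.76 in parental, 59.6 and 158 in LCC1 and 209 and 185 in LCC2 (4.95 ± 0.45, adjusted p = 2.78e-04), and DUSP6 was not called (-0.64 ± 0.40).

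Of 27 glycolysis and hypoxia genes 1 rose, 7 fell (25.9%) and 19 were not called, with a median of -0.38. The list as a whole was lower mainly in LCC2, with a median difference from parental of -0.007 in LCC1 and -0.84 in LCC2. In the fit with separate groups, LCC2 was lower than LCC1 at 19 of the 27 and higher at 0. The shares over all tested genes were 18.6% and 16.4%. HK2, the inducible hexokinase, was at 4255, 4277 and 4039 in parental, 1978 and 1792 in LCC1 and 2011 and 1968 in LCC2 (-1.11 ± 0.08, adjusted p = 1.02e-04). PFKFB3, which makes the activator of phosphofructokinase, was at 15851, 15655 and 15126 in parental, 5843 and 3570.0 in LCC1 and 3444 and 3414 in LCC2 (-1.97 ± 0.19, adjusted p = 3.96e-04). Both fell, with every LCC library below the parental ones, ALDOA (-0.63 ± 0.16) fell as well, and the carbonic anhydrase CA9 was the member that rose (4.33 ± 0.64). In cholesterol synthesis 3 of 23 rose and 6 fell. Of 17 fatty acid genes 2 rose and 2 fell, the desaturase FADS1 going from 488, 499 and 516 in parental to 1655 and 1169.7 in LCC1 and 1427 and 1471 in LCC2 (adjusted p = 2.02e-04).

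In the integrated stress and unfolded protein response 1 of 20 rose and 6 fell (30%), or 3 and 3 under equal library totals, among them the disulfide isomerase PDIA4, at 13404, 12747 and 12661 in parental, 8229.6 and 5608 in LCC1 and 6234 and 6085 in LCC2 (adjusted p = 0.00138), and HSPA5 was not called (-0.02 ± 0.15). Heat shock chaperones had 3 up and 3 down of 16 (6 and 2 under equal totals), and NRF2 targets 3 up and 4 down of 20, including AKR1C3 (-2.13 ± 0.55). Of 34 ribosomal protein genes 7 fell (20.6%) and 27 were not called, but under equal library totals 8 were higher and 3 lower, so their direction depended on the scaling. Without that rescaling, LCC2 was lower than LCC1 at 24 of the 34 and higher at 1, beside 18.6% and 16.4% of all tested genes. In the BCL2 family 2 of 15 rose and 2 fell: the survival gene BCL2 was at 0, 1.91 and 1.38 in parental, 28.8 and 45.3 in LCC1 and 32.3 and 46.6 in LCC2 (4.33 ± 0.42, adjusted p = 3.82e-04), and BID, which links death receptors to mitochondria, fell (-1.05 ± 0.11). Of 11 death receptor genes 1 rose and 3 fell. Without the second LCC1 library 14 cell cycle genes, 7 immediate early genes, 5 fatty acid genes, 5 integrin and laminin genes, 4 natural killer ligands and 3 ERK feedback genes were lower, and 8 CDK inhibitor and quiescence genes and 6 NRF2 targets were higher. Calls also rose over all tested genes without that library, to 24.2% higher and 24% lower from 19.2% and 19.3%. Under equal library totals 7 NF-kB and cytokine genes, 5 BCL2 family genes, 5 NRF2 targets, 4 cargo receptors and 3 glycolysis genes were higher. That rescaling moved all tested genes the same way, to 3813 higher and 2146 lower from 2959 and 2973. With the derivative as the unit 5 fatty acid genes were lower, 5 heat shock chaperones higher, and 5 NF-kB and cytokine genes higher and 5 lower. That fit called 18.5% of all tested genes higher and 19.8% lower.

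The derivatives also differed from each other. In a fit of parental, LCC1 and LCC2 as 3 groups, 2534 genes (16.4%) were higher and 2867 (18.6%) lower in LCC2 than in LCC1, 35% in all. Leaving out the first or the second LCC1 library raised these to 5124 and 4881 or 4311 and 4774, and leaving out the first or the second LCC2 library cut them to 729 and 1049 or 813 and 1107, the lone library being assumed to vary like the other groups. Under equal library totals 3857 were higher and 1943 lower, so the balance turned with the scaling. RPS6KA2, a ribosomal S6 kinase, was at 2034, 2016 and 2004 in parental, 74 and 85.9 in LCC1 and 1170.3 and 1217 in LCC2 (LCC2 minus LCC1 3.89 ± 0.09, adjusted p = 1.44e-05). MT2A, a metallothionein, was at 1318, 1220.5 and 1217 in parental, 11528 and 13709 in LCC1 and 1452 and 1389.9 in LCC2 (-3.14 ± 0.10, adjusted p = 3.73e-05). RPS6KA2 was lowest in LCC1, and MT2A was far above the parental range in LCC1 and just above it in LCC2. LARP6, an RNA-binding protein that acts on collagen mRNAs, was at 175, 190.5 and 177 in parental and 247 and 271 in LCC1 and had no read in either LCC2 library. It was thus at least 228-fold higher in LCC1 and at least 157.7-fold higher in parental libraries against 3 reads over the LCC2 group. CD109 (-4.33 ± 0.14), FSCN1, an actin bundling protein (-1.96 ± 0.07), and KRT6A (-3.30 ± 0.09) were lower in LCC2, and PRKAR2B (1.94 ± 0.08) and NAIP (1.83 ± 0.08) were higher.

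At 2465 genes (16%) 1 derivative mean lay above and the other below every parental library. By the test, 229 genes (1.48%) were called higher in LCC1 and lower in LCC2 than in the parental libraries they share, and 156 (1.01%) the reverse. By itself LCC1 had 27.8% of genes higher and 27.4% lower than parental, and LCC2 25.5% and 26.5%. SLC5A1, the sodium-glucose cotransporter, was at 56.7, 38.3 and 51.7 in parental, 1.03 and 1.56 in LCC1 and 587 and 593 in LCC2, a ratio of LCC2 to LCC1 of 443.5 (95% counting interval 151.5 to 2153). ID2, an inhibitor of basic helix-loop-helix factors, was at 199.7, 199 and 208 in parental, 50.3 and 11.7 in LCC1 and 936 and 888 in LCC2 (LCC2 minus LCC1 5.16 ± 0.56, adjusted p = 0.00153). Both were below the parental range in LCC1 and above it in LCC2. In the other direction ANKS6, an ankyrin repeat protein of cilia, was at 131, 124 and 139 in parental, 257 and 406 in LCC1 and 0 and 1.35 in LCC2, a ratio of LCC1 to LCC2 of 448 (123.6 to 3706), and OLFML3, a secreted matrix protein, at 47.1, 23.9 and 42.8 in parental, 271 and 843 in LCC1 and 3.49 and 2.7 in LCC2 (-6.88 ± 0.56, adjusted p = 6.81e-04).

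Genes with shifted values also lay side by side on chromosomes. With 12418 genes of mean 50 or more placed in RefSeq order, a running median over 31 neighbours passed 0.5 on the log2 scale in 8 stretches of at least 20 genes, 3 higher and 5 lower in LCC, holding 473 genes (3.81%). The same contrast chose the stretches, so the share called in them (70.6%, against 39.8% outside) is a description. On chromosome 10, 108 genes from ZMYND11 to ZNF33A had a median of -0.91, with -0.74 in each LCC1 library and -1.13 and -1.12 in the LCC2 libraries, and 75 were called lower and 6 higher. ITGB1, NRP1, PFKFB3, IDI1, BAMBI, GATA3, AKR1C3, VIM and FZD8 lie in it, FZD8 being one of the 6. On chromosome 20, 151 genes from KIF16B to ACOT8 had a median of 0.68, with RBL1 and UBE2C among those that rose. On chromosome 22, 34 genes from TTC38 to RABL2B had a median of 1.28, and on chromosome 4, 68 genes from LNX1 to HNRNPDL, BTC and EPGN among them, -0.80. The medians in MLM were -0.93, 0.63, 1.37 and -0.72 for these 4 stretches, and in H2087 0.02, -0.03, -0.03 and 0.12. Another stretch, on chromosome 6, held 22 genes from KDM1B to HIST1H2BC, SOX4 among them. Its medians were -0.76 in MRM, -0.88 in MLM and 0.02 in H2087. DNA copy number was not analysed here, and its part was not tested.

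**Figure D4:**
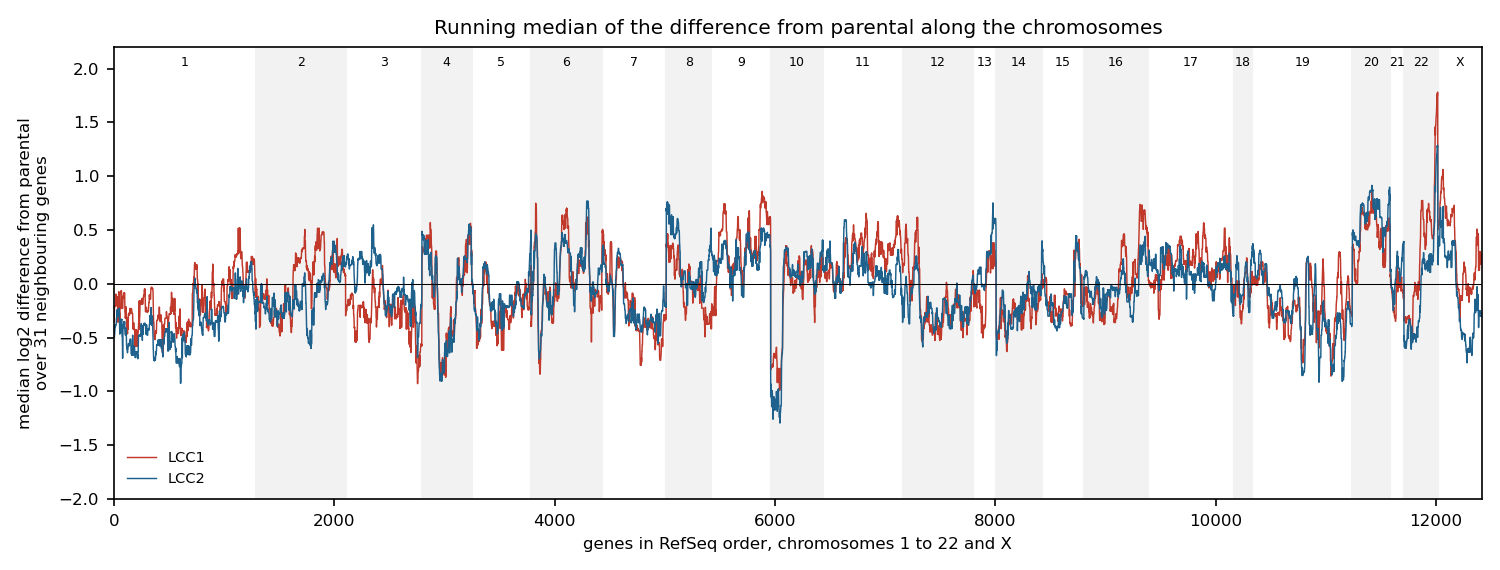
Running median over 31 neighbouring genes of the log2 difference from parental, for LCC1 and LCC2, along chromosomes 1 to 22 and X in RefSeq gene order. Both lines drop together on chromosomes 4 and 10 and rise together on chromosomes 20 and 22.

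The comparison was then set beside the same lines in mitogen-low medium. Of the 14920 genes tested in both media, 1888 were called higher in both (64.8% of the MRM calls and 72.1% of the MLM calls) and 1988 lower in both (68% and 70%), and 6 and 1 were called in opposite directions. Among all 14920, 17.5% were called higher and 19% lower in MLM. A test of the difference itself, over 15397 genes in 14 libraries, called 14 genes (0.0909%) with a higher and 10 (0.0649%) with a lower LCC effect in MRM than in MLM, and 1540 genes (10%) had an unadjusted p under 0.05. With a single library left out these counts ran from 0 to 31 and from 0 to 19, with 0 in both directions without any one of the MRM parental libraries. With each derivative as its own group in each medium, a fit added after the data were seen, there were 774 and 615.

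CHST10, a sulfotransferase of the HNK-1 epitope, was at 74.3, 63.2 and 81.4 in parental, 537 and 599 in LCC1 and 429 and 437 in LCC2 in MRM. Its LCC effect was 2.76 ± 0.17 there and 1.07 ± 0.18 in MLM, a difference of 1.68 ± 0.26 (adjusted p = 0.034). ADAM22, a receptor of secreted LGI proteins, had effects of 1.99 ± 0.14 and 0.21 ± 0.20 (difference 1.77 ± 0.28, adjusted p = 0.0402), the MLM parental mean being 126 against 35.9, 38.3 and 37.3 in MRM. FGB, the fibrinogen beta chain, fell in MRM from 1083, 1094 and 1009 to 50.3 and 29.7 in LCC1 and 50.6 and 46 in LCC2, with a parental mean of 69 in MLM (difference -2.68 ± 0.36, adjusted p = 0.0258). TGFBR2 had an effect of 1.09 ± 0.11 in MRM and 0.12 ± 0.12 in MLM (difference 0.97 ± 0.16, adjusted p = 0.047). SPP1 (-4.83 ± 1.23, adjusted p = 0.174) and PLAT (-2.34 ± 0.70, adjusted p = 0.24) had large differences between media that were not called.

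**Figure D5:**
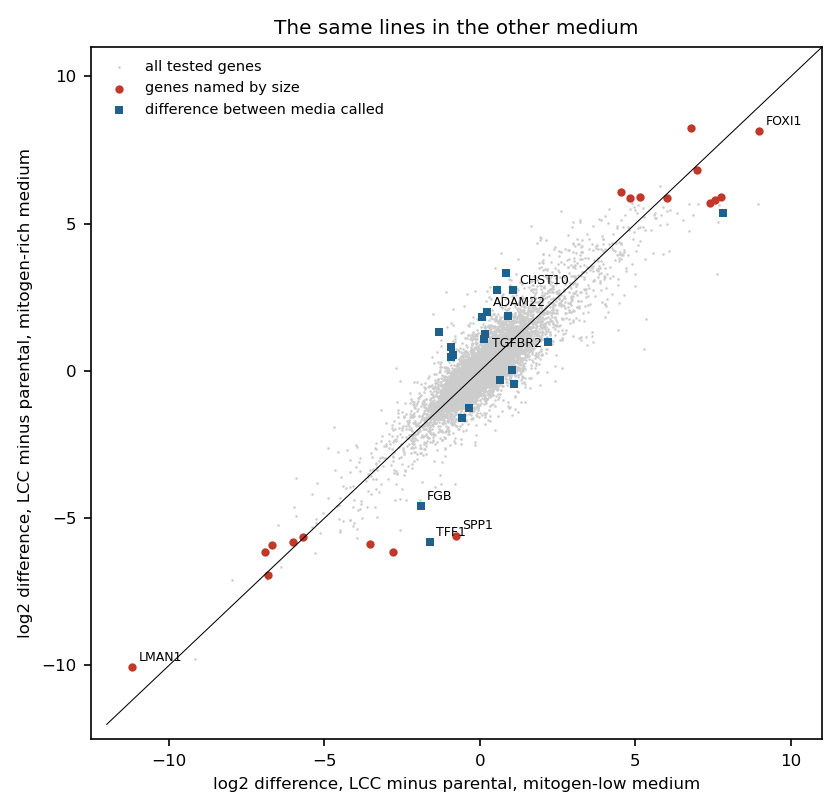
Log2 difference between LCC and parental libraries in mitogen-rich (vertical axis) against mitogen-low medium (horizontal axis) for genes tested in both, with the genes of largest change and those whose effect was called different between media marked. Most marked genes lie near the diagonal, and FGB and TFF1 lie off it.

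In the lung line H2087 with its own derivatives in MRM, 6 libraries against 2, 1094 of 12495 genes (8.76%) were higher and 728 (5.83%) lower. Of the HCC1954 increases tested in both lines 7.09% were called higher there too and 8.35% lower, and of the decreases 4.48% were lower there and 11.1% higher, with no test between the lines. CDH1 had an H2087 difference of 3.01 ± 1.34 beside -0.89 ± 0.13 in HCC1954, and SOX2 1.94 ± 0.44 beside -3.33 ± 0.48. These genes do not stand for their lists. Among 24 epithelial markers tested in H2087, 4 were higher and 0 lower, and among 13 mesenchymal genes also 4 and 0.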

How the data were processed

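RNA-seq was run on HCC1954 parental, LCC1 and LCC2 cultures after 48 h in MRM. The deposited normalised counts (a signal per gene) are gene reads divided by a size factor per library; Bowtie2 2.2.4, HTSeq 0.6.1p1, DESeq2 1.8.1 and hg19 are named per the submitters' processing notes. All values in each library (100%) became whole reads within 0.01 when multiplied by that factor, and both HCC1954 tables share one scaling. Genes with a mean of at least 10 were fitted as log2(value + 1) with limma 3.58.1 in R 4.3.3 (trended prior variance, two-sided, Benjamini-Hochberg over all tested genes, threshold 0.05). Folds on that scale understate the change of low genes. The recovered reads were fitted with edgeR 4.0.16 and DESeq2 1.42.0 as alternatives. The pooled limma fit was tried on simulated counts in which all LCC libraries shared the same mean. That setting held no difference between derivatives, so it cannot show how the fit handles one. The members and lists were chosen with earlier results of these data known. Named genes were the 10 largest changes per direction among called genes of mean at least 100 with no overlap between groups, up to 4 called members per list by adjusted p, a set of focal genes, and the leading genes between derivatives and media; other members, the E-box and the running median were chosen after values were seen. Counting intervals (95%) and bounds against 3 reads cover counting error only. Replicate numbers did not pair the samples. Chromatin samples were not used here, and some named genes are not reported here.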

Additional observations from a re-analysis of the deposited data

Results flagged for a closer look

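Among 87 genes described above, 1 LCC library lay apart from the other 3 at 11, measured as its gap to the nearest of the others over the range of the 4. Every one of the 11 was an LCC1 library. The 4 libraries are pairs from 2 derivatives, and the LCC2 pair was close (chi-square per degree of freedom 2.1, against 115 for LCC1). An LCC2 library could thus hardly be the one apart. The usual rate of 1 flag in 20 groups assumes 4 libraries of 1 kind and does not apply here. The first LCC1 library was the one apart at IRF1 (0.935), PFKFB3 (0.917), KRT13 (0.906), ESR1 (0.905), SPP1 (0.905) and TGFBR2 (0.887), and the second at B2M (0.914), RET (0.909), TNFSF10 (0.908), VIM (0.853) and HLA-B (0.842).

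The derivatives moved in opposite directions from the parental libraries, with a tested difference between them, at 5 genes described above. The fitted log2 difference of LCC2 minus LCC1 was 8.02 for SLC5A1, 5.16 for ID2, -6.88 for OLFML3, -7.72 for ANKS6 and -8.02 for LARP6, and for the genes near 0 it depends on the added count of 1.

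The LCC effect differed between the media by a test of the difference at 5 of the genes described here. The difference, MRM minus MLM, was 1.77 for ADAM22, 1.68 for CHST10, 0.97 for TGFBR2, -2.68 for FGB and -4.20 for TFF1.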

How the results depend on the processing

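Counts of genes that differed between LCC and parental libraries were within 1.5 times the reported ones under other pseudocounts, filters, scaling, tools and groupings. The fit with LCC1 and LCC2 as separate groups came very close to that limit, with 4434 higher and 4453 lower. The exceptions to the limit were the replicate block (1202 higher, 1108 lower), although the numbers did not pair the samples, and fits with 1 library left out, which ran from 1874 to 3712 higher and 1774 to 3719 lower (3709 and 3717 with both derivative means beyond the parental libraries). For LCC2 minus LCC1 the block gave 1292 and 1597, equal library totals 3857 higher, and leaving out a library 729 to 5124 higher and 1049 to 4881 lower. The difference between media gave 6 and 4 with a pseudocount of 0.5, 6 higher without a filter on low values, 9 higher with a mean of at least 50 and 9 higher under equal totals. It gave 0 and 0 with the block, 0 to 31 and 0 to 19 with a library left out, and 774 and 615 with derivatives as separate groups, an alternative chosen after seeing the data. Of 172 named genes called, 139 kept the call in all 7 fits that left out a library, 59 lost it with the block, 5 under equal totals, 2 with the derivative as unit and 0 with edgeR. Most of them were chosen for a small adjusted p or a large change, so their share does not stand for all calls. Of all 5932 calls, 61.5%, 61.6% and 62.5% were kept without parental library 1, 2 and 3. Without an LCC library 84.2% to 97.6% were kept, and with the block 38.9%. Genes that were not called changed sign: MKI67 to 0.066 and CDKN1B to 0.058 under equal totals, MKI67 to 0.079 without the first LCC1 library, and VIM to -0.26 and CDKN1B to 0.074 without the second. With a library left out they ran from -0.16 to 0.079 for MKI67, -0.15 to 0.074 for CDKN1B and -0.26 to 1.02 for VIM. For each of these the cause was not tested. The number of isolates (2), the wide LCC1 pair and the low parental counts of the leading genes limit the precision.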
